A study of Mus musculus with 24 samples.

Results

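The list followed here holds 52 genes that act at the end of the cell cycle, in the G2 phase and in mitosis, the usual G2/M set by which dividing cells are scored. They were chosen by symbol, from a general list of such genes, by a rule that uses no measured value, and all 52 were found among the 56748 genes of the read-count table. Each of the 52 passed the filter on low counts in every comparison, and the lowest count of any of them in any library was 132, for Cks2.

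RNA of the mesenchyme of the mouse lower first molar was sequenced in bulk, in 24 libraries. Every embryo was of the ICR strain, which is outbred, with no transgene or deletion, and the epithelium was taken off after dispase II. There were 8 groups of 3 libraries. At the cap stage, on embryonic day 13, they were the undivided mesenchyme (Cap-W), the lingual part, on the tongue side (Cap-L), and the buccal part, on the cheek side (Cap-B). At the bell stage, on embryonic day 15, the same cuts gave Bell-W, Bell-L and Bell-B. Titles of the paper's supplementary tables speak of whole tooth germs for the comparison of cap with bell stage. The text of the paper describes isolated mesenchyme, and that reading is used here for Cap-W and Bell-W. In the last pair of groups, parts of cap stage germs spent 2 days in culture (Cap-L+2D and Cap-B+2D). The parts were cut by hand with a fine needle, embryos of several dams were pooled, and the methods speak of triplicates but also of fewer biological replicates, so p-values here measure only the spread between these libraries, which may be technical. Against the cap parts the cultured parts differ in both culture and age, which cannot be told apart in that comparison, and the parts from the bell stage embryo, of the age that the cultured ones reached, give a further one.

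A cell that goes from G2 into mitosis switches on cyclin-dependent kinase 1 with its B-type cyclins, condenses its chromosomes, builds a spindle, attaches each chromosome to it through the kinetochore, and splits after the anaphase-promoting complex has marked cyclins and securin for destruction. The mRNAs for these proteins are made late in the cycle and drop in cells that leave it, so in a bulk sample their level follows the share of cells in that phase as well as the RNA in each cell, and fewer such cells and less of the RNA per cell cannot be told apart. Many of these genes are held off in quiescent cells by the DREAM complex and driven in cycling cells by B-MYB and FOXM1 through a promoter element called CHR (cell cycle genes homology region), often beside CCAAT boxes that the factor NF-Y binds. In the tooth germ the dental mesenchyme, which comes from the cranial neural crest, divides while the epithelium folds into the cap and then the bell.

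The promoters of 7 of the genes are shown because their levels carry the results below. Ccnb2 and Cdc20 are shown as cell cycle drivers, and Top2a and Mki67 as proliferation markers. Cenpa and Cenpe are genes of the kinetochore with large falls. Hmgb2 is the 1 gene called higher after culture than at the cap stage, and only in the buccal part. Each sequence runs 5′ to 3′ from 150 bases before to 30 bases after the RefSeq start in GRCm38.p6, and capitals mark the letters of a CHR element or of a CCAAT box, on either strand.
Ccnb2 (chr9:70421525-70421704, minus strand): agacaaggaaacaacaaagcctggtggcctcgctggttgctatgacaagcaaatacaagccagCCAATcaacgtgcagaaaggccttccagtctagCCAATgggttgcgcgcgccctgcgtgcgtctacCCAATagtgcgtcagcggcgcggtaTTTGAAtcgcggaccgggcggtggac
Cdc20 (chr4:118437314-118437493, minus strand): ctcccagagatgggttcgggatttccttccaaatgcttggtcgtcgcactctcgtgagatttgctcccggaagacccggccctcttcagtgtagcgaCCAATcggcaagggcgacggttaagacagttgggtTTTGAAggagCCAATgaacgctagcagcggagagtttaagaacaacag
Top2a (chr11:99024160-99024339, minus strand): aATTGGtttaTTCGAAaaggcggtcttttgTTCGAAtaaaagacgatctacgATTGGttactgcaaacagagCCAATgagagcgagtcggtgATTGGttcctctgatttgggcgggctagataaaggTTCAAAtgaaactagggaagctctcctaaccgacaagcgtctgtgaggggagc
Mki67 (chr7:135716350-135716529, minus strand): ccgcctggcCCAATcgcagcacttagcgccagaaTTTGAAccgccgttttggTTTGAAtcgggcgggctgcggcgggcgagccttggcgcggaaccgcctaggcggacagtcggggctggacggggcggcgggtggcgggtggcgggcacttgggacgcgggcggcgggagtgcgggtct
Cenpa (chr5:30666736-30666915, plus strand): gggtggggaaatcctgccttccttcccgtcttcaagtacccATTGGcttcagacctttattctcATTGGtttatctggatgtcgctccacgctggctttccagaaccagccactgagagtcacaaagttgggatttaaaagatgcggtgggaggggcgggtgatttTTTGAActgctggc
Cenpe (chr3:135212413-135212592, plus strand): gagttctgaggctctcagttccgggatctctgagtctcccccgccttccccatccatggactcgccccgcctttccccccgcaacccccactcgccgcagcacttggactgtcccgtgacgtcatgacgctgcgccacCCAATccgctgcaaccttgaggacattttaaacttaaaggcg
Hmgb2 (chr8:57511693-57511872, plus strand): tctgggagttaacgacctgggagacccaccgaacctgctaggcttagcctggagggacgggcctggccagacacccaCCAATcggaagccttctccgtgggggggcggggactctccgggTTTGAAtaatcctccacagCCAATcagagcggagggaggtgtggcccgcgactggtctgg
In Cdc20 the CHR letters began 18 bases before the start, between 2 CCAAT boxes that began 53 and 8 bases before it. Top2a held 3 CHR matches and 4 CCAAT matches in the window shown, the most of the 7. Ccnb2 carried its CCAAT boxes in a row, 87, 54 and 21 bases before the start, and its CHR letters 5 bases after it. Cenpe had no CHR letters in this window, and Hmgb2 had them 30 bases before the start.

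Of the 52 genes, 46 had an entry among the RefSeq promoters, with 51 windows of 300 bases between them (250 before the start and 50 after), while Tpx2, Smc4, Aurkb, Cdc25c, Dlgap5 and Cdca2 were not matched. The CHR letters, searched on both strands as TTTGAA and also, for its second known form, as TTCGAA, stood in 74.5% of the windows of these genes and in 19.2% of all 32851 windows. CCAAT, also searched on both strands and able to share at most 1 letter with a CHR match, stood in 74.5% against 37.4%, and both motifs in 60.8% against 7.52%. For comparison, 41 of 50 other mitotic genes were matched, with 45 windows, and 31 of 43 S phase genes, with 35 windows. CHR letters stood in 66.7% of the former windows and 17.1% of the latter, whereas CCAAT stood in 65.7% of the S phase windows. A match of letters is a description and not a known binding site. The 36 genes with CHR letters in a window and the 10 without them (Birc5, Cbx5, Cenpe, Cks2, G2e3, Gtse1, Nek2, Nuf2, Nusap1 and Tacc3) had median log2 fold changes of -0.82 and -0.86 in the lingual culture comparison described below.

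Total counts ran from 20581720 to 39266497 a library. Levels are given as normalised CPM (counts relative to library size), scaled over all 24 libraries with edgeR's TMM factors, and a gene is called when its adjusted p is under 0.05 and its log2 fold change is over 0.5 in size. Defining dental mesenchyme markers (Msx1, Pax9, Barx1 and 6 others) were present in every library. A pair of undivided libraries stood apart from their groups. Cap-W replicate 1 had 5.39% of its counts on the ribosomal RNA gene Rn18s-rs5. Bell-W replicates 1 and 2 had 1.30% and 1.43%, and the remaining libraries 0.0761% to 0.304%. Bell-W replicate 3 had a summed level of 2111 CPM of 10 epithelial markers, against 591 and 505 CPM in the other Bell-W libraries. Results that rest on the undivided libraries are therefore given with and without Cap-W replicate 1 and Bell-W replicate 3. The Bell-W libraries then kept are those with the higher ribosomal share.

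The summed level of the 52 genes was lowest after culture. It was 4607, 4485 and 4563 CPM in Cap-L and 2578, 2642 and 2588 CPM in Cap-L+2D. On the buccal side it was 4614, 4633 and 4598 CPM in Cap-B and 3393, 3332 and 3241 CPM in Cap-B+2D. The cap parts lay together and the cultured buccal libraries stood above the cultured lingual ones without overlap. At the bell stage the sum was 4089.7, 4176 and 4150.4 CPM in Bell-L and 4832, 4934 and 4804 CPM in Bell-B, again with the buccal part above. The Cap-W libraries were the highest, with 7542, 6293 and 6347 CPM. Bell-W measured 5127, 5169 and 4677 CPM, and its replicate 3 lay below every Bell-B library.

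**Figure D1:**
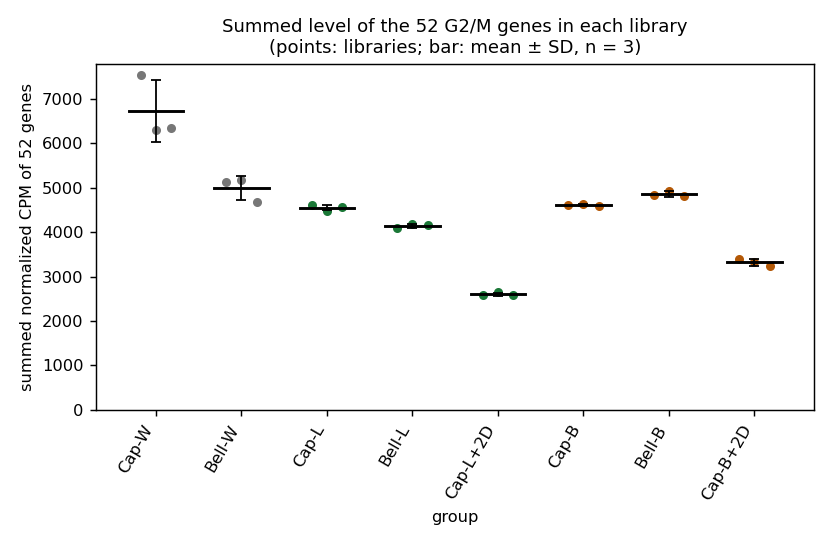
Summed normalised CPM of the 52 G2/M genes (vertical axis) in each library, by group (horizontal axis), with points for libraries and a bar for the mean ± SD (n = 3); green marks lingual, brown buccal and grey undivided groups. The 3 Cap-L+2D libraries are the lowest of all, at 2578 to 2642 CPM, and Cap-B+2D follows at 3241 to 3393 CPM.

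Gene by gene the order was much the same. The highest group mean was in Cap-W for 47 of the 52 genes, in Bell-W for Cdk1 and Tubb4b, in Bell-B for Aurkb and Gas2l3, and in Cap-L for Rangap1. Cap-L+2D held the lowest mean for 50 genes, the exceptions being Hmgb2, lowest in Cap-B, and Tubb4b, lowest in Cap-B+2D. With both libraries that stand apart left out, Cap-W still had the highest mean for 42 genes. Per kilobase of exon, the mean level in Cap-L ran from 2.01 CPM for Ndc80, part of the outer kinetochore, to 78.0 CPM for Tubb4b, a beta-tubulin that other cell states also use. Anp32e, a histone chaperone, reached 61.6 CPM per kilobase, the cyclin Ccnb2 34.3, the proliferation marker Mki67 29.7 and the large kinetochore protein gene Cenpf 4.66.

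**Figure D2:**
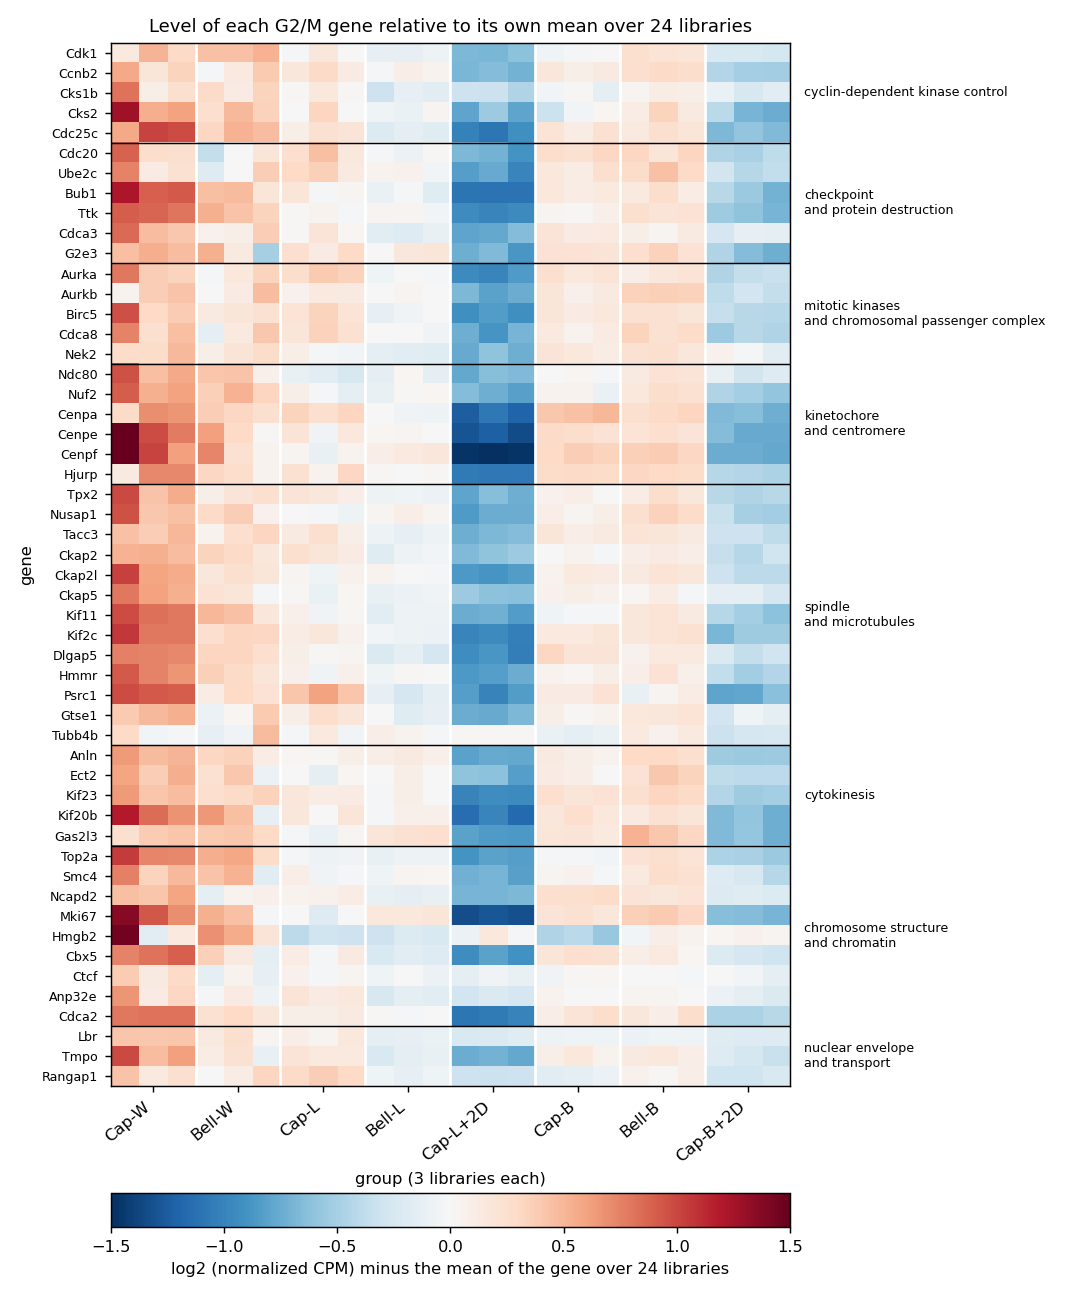
Level of each of the 52 genes (rows, grouped by role) in each of the 24 libraries (columns, 3 for each group), as log2 normalised CPM minus the mean of that gene over all libraries. Blue columns in Cap-L+2D and paler blue in Cap-B+2D run through nearly all roles, whereas Hmgb2 and, in Cap-L+2D, Tubb4b do not follow them and Ctcf and Lbr do so only faintly.

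The first question is how far these genes in the lingual part differed after 2 days in vitro from the cap stage. After culture 46 of the 52 genes were lower in Cap-L+2D than in Cap-L and none was higher, where 15.9% of all 21425 genes tested were called lower and 19.6% higher. Their median log2 fold change was -0.86, a 1.81-fold lower level, against -0.03 for all genes tested. On the buccal side 28 of the 52 were lower in Cap-B+2D than in Cap-B and 1 was higher, with 16.6% of 21992 genes called lower and 17.9% higher, and the median was -0.52, or 1.43-fold lower, against -0.02. DESeq2 called 45 and 27 genes lower and 0 and 1 higher, and the 1 lingual gene that was higher at an unadjusted p under 0.05 was Hmgb2. The 28 genes that fell in the buccal part all fell in the lingual part too, 18 more fell in the lingual part and were not called in the buccal part, and Cks1b, Anp32e, Tubb4b, Lbr and Ctcf were called in neither.

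**Figure D3:**
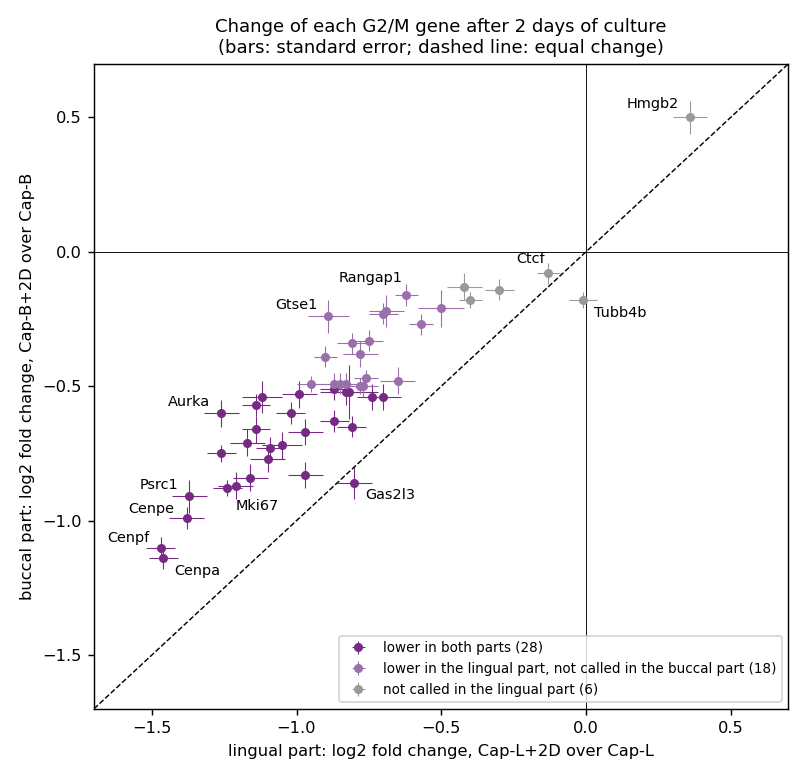
Log2 fold change of each of the 52 genes after 2 days of culture in the lingual part (horizontal axis) and in the buccal part (vertical axis), with standard errors as bars and a dashed line of equal change. Of the 52 points, 50 lie above the line, so that their log2 fold change was lower in the lingual part, and Cenpa, Cenpf and Cenpe lie farthest to the lower left.

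Genes of the kinetochore and centromere fell most. All 6 fell in the lingual part, with a median log2 fold change of -1.32, and 5 of 6 fell in the buccal part, with a median of -0.87. Cenpf, whose product coats the outer kinetochore (ENSMUSG00000026605, chr1:189372803-189420283 in GRCm39), measured 74.0, 67.0 and 74.9 CPM in Cap-L and 26, 25.7 and 26 CPM in Cap-L+2D. In the buccal part it measured 89.1, 93.2 and 90.7 CPM before and 43.2, 43.2 and 42.3 CPM after culture. Every cultured library lay far below every fresh one, and the lingual ones below the buccal ones. Its log2 fold change was -1.47 ± 0.05 (SE, edgeR adjusted p = 4.45e-18) in the lingual part, a 2.76-fold lower level, and -1.10 ± 0.04 (adjusted p = 2.26e-22) in the buccal part.

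Cenpa, the histone H3 variant that marks the centromere (ENSMUSG00000029177, chr5:30824121-30832174), measured 96.6, 90.3 and 95.6 CPM in Cap-L and 32.4, 36.2 and 33.2 CPM in Cap-L+2D. The buccal values were 101, 104 and 108 CPM before and 48.3, 49.1 and 46.1 CPM after culture, again without overlap. The log2 fold changes were -1.46 ± 0.05 (adjusted p = 2.11e-18) and -1.14 ± 0.04 (adjusted p = 1.55e-22), the largest fall of the 52 in the buccal part. Cenpe, the kinesin that carries chromosomes to the spindle equator (ENSMUSG00000045328, chr3:134918298-134979372) and whose promoter had no CHR letters, fell by 1.38 ± 0.06 on the log2 scale in the lingual part (adjusted p = 2.61e-16) and by 0.99 ± 0.04 in the buccal part (adjusted p = 6.86e-20). Hjurp, the chaperone that places Cenpa, fell by 1.26 ± 0.05 and 0.75 ± 0.03. Nuf2 fell in both parts, and its partner Ndc80 fell by 0.50 ± 0.08 in the lingual part (adjusted p = 3.51e-06) and had a log2 fold change of -0.21 ± 0.07 in the buccal part, under the fold limit.

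Among the genes that control the cyclin-dependent kinases, 4 of 5 fell in the lingual part and 3 of 5 in the buccal part. Cdk1, the kinase that drives entry into mitosis (ENSMUSG00000019942, chr10:69170976-69188768), measured 90.3, 104 and 92.7 CPM in Cap-L and 58.1, 57.6 and 60.5 CPM in Cap-L+2D. In the buccal part it went from 88.8, 90.6 and 92.1 CPM to 78.9, 78.8 and 77.3 CPM. The groups did not overlap on either side, but the step was far smaller on the buccal side. The log2 fold change was -0.70 ± 0.05 (adjusted p = 5.67e-12) in the lingual part and -0.23 ± 0.04 (adjusted p = 1.22e-06) in the buccal part, which is under the fold limit. Its cyclin Ccnb2 fell in both, by 0.87 ± 0.05 and 0.63 ± 0.04, and so did Cdc25c, the phosphatase that switches the kinase on, by 1.16 ± 0.06 and 0.84 ± 0.05. A pseudogene, Ccnb2-ps, took counts equal to 10.1% of those of Ccnb2, so reads of the pair may be split. The small kinase subunit Cks2 fell in both parts, and its relative Cks1b was not called, with log2 fold changes of -0.42 ± 0.06 and -0.13 ± 0.05; a copy, Cks1brt, held 17.3% as many counts.

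The checkpoint and destruction genes fell almost together: 6 of 6 in the lingual part and 5 of 6 in the buccal part, with medians of -1.01 and -0.69. Bub1, a kinase of the spindle checkpoint, measured 59.3, 51.9 and 53.7 CPM in Cap-L and 24.4, 24.3 and 24.2 CPM in Cap-L+2D. From Cap-B to Cap-B+2D it went from 58.6, 56.4 and 58.0 CPM to 39.1, 35.5 and 32.1 CPM. It fell on both sides, by 1.17 ± 0.06 (adjusted p = 4.39e-15) and 0.71 ± 0.05 (adjusted p = 1.33e-13) on the log2 scale. Cdc20, the activator of the anaphase-promoting complex, fell by 1.05 ± 0.07 and 0.72 ± 0.05. Ube2c, the ubiquitin-conjugating enzyme of that complex, fell by 1.12 ± 0.07 and 0.54 ± 0.06, but 22.8% of its exon bases are shared with Tnnc2, a muscle troponin gene, and reads there may not have been assigned to it. Ttk, another checkpoint kinase, and G2e3, a ubiquitin ligase, fell in both parts, while Cdca3, which helps to destroy Wee1, fell by 0.81 ± 0.05 in the lingual part and had a log2 fold change of -0.34 ± 0.04 in the buccal part.

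Of the mitotic kinases and the chromosomal passenger complex, 5 of 5 fell in the lingual part and 3 of 5 in the buccal part. Aurka, the centrosome kinase (ENSMUSG00000027496, chr2:172198110-172212455), measured 45.6, 50.0 and 48.4 CPM in Cap-L and 19.6, 19.1 and 21.2 CPM in Cap-L+2D. On the buccal side it was 44.9, 42.4 and 43.7 CPM before and 27.8, 29.6 and 30.2 CPM after culture. Fresh parts were nearly level and cultured parts were not, with the lingual libraries lower throughout. The log2 fold changes were -1.26 ± 0.06 (adjusted p = 5.06e-16) and -0.60 ± 0.05 (adjusted p = 9.2e-13). Birc5, or survivin, fell by 1.14 ± 0.05 and 0.57 ± 0.04, and Cdca8, or borealin, by 1.02 ± 0.05 and 0.60 ± 0.04. Their partner Aurkb, the kinase of that complex, fell by 0.85 ± 0.05 in the lingual part and measured -0.49 ± 0.04 (adjusted p = 9.47e-12) in the buccal part, just under the fold limit. Nek2, a centrosome kinase, fell in the lingual part by 0.69 ± 0.06 and measured -0.22 ± 0.06 in the buccal part.

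In the largest role, spindle and microtubules, 12 of 13 genes fell in the lingual part and 6 of 13 in the buccal part. Psrc1, which binds microtubules near the kinetochore (ENSMUSG00000068744, chr3:108291155-108295547), measured 52.6, 59.8 and 52.3 CPM in Cap-L, 22.1, 19.6 and 22.0 CPM in Cap-L+2D, 42.9, 42.8 and 45.6 CPM in Cap-B and 22.8, 22.9 and 25.4 CPM in Cap-B+2D. It started higher on the lingual side and ended slightly higher on the buccal side, by 0.15 ± 0.06. Its log2 fold change was -1.37 ± 0.06 (adjusted p = 6.9e-16) and -0.91 ± 0.06 (adjusted p = 1.43e-15). Tpx2, which activates Aurka on the spindle, fell by 0.87 ± 0.05 and 0.51 ± 0.04. Kif11, the motor that keeps the spindle bipolar, fell by 0.77 ± 0.05 in the lingual part and stood at -0.50 ± 0.04 in the buccal part, at the fold limit and not called. Kif2c, Dlgap5, Hmmr and Nusap1 fell in both parts, whereas Tacc3, Ckap2, Ckap2l, Ckap5 and Gtse1 were called only in the lingual part.

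Tubb4b was the 1 spindle gene called in neither part (ENSMUSG00000036752, chr2:25112172-25114714). It measured 156, 177 and 155 CPM in Cap-L and 162, 161 and 161 CPM in Cap-L+2D, with overlap, and 149, 145 and 149 CPM in Cap-B and 128, 134 and 135 CPM in Cap-B+2D, without. The log2 fold changes were -0.01 ± 0.05 (adjusted p = 0.909) and -0.18 ± 0.03 (adjusted p = 3.84e-05). Reads of Tubb4b can be split with its copy Tubb4b-ps1, which held 28.5% as many counts.

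The genes of cytokinesis fell in 5 of 5 cases in the lingual part and in 4 of 5 in the buccal part. Kif20b, a motor of late mitosis, fell by 1.21 ± 0.06 and 0.87 ± 0.05, and Kif23, a motor of the central spindle, by 1.09 ± 0.05 and 0.73 ± 0.04. Anln, which binds actin in the cleavage furrow, fell by 0.81 ± 0.05 and 0.65 ± 0.04. Gas2l3, a linker of actin and microtubules, was the 1 fallen gene with a lower log2 fold change in the buccal part, -0.86 ± 0.06, than in the lingual part, -0.80 ± 0.06. Ect2, which activates RhoA at the furrow, fell by 0.65 ± 0.06 in the lingual part and measured -0.48 ± 0.05 in the buccal part.

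Chromosome structure and chromatin was the most mixed role, with 6 of 9 genes lower in the lingual part, and 2 of 9 lower and 1 higher in the buccal part. Mki67, which coats mitotic chromosomes (ENSMUSG00000031004, chr7:135291513-135318090), measured 313, 273 and 310.4 CPM in Cap-L and 124, 128 and 125 CPM in Cap-L+2D. Its buccal values were 356, 364 and 350.4 CPM before and 200.4, 198 and 192 CPM after culture. The buccal libraries were the higher ones both before and after. It fell by 1.24 ± 0.05 (adjusted p = 2.98e-17) and 0.88 ± 0.03 (adjusted p = 1.02e-21) on the log2 scale. Top2a, the topoisomerase that untangles sister chromatids (ENSMUSG00000020914, chr11:98883769-98915015), went from 284, 275 and 279 CPM to 156, 166 and 163 CPM in the lingual part, a fall of 0.78 ± 0.04 (adjusted p = 1.29e-14). In the buccal part it went from 284, 284 and 282 CPM to 208, 206 and 196 CPM, and its log2 fold change of -0.50 ± 0.03 (adjusted p = 2.43e-15) was at the fold limit and not called.

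The condensin genes Smc4 and Ncapd2 and the heterochromatin protein gene Cbx5 fell in the lingual part alone among the calls, and Cdca2, which recruits a phosphatase to chromatin at mitotic exit, fell in both. Hmgb2, a DNA-bending protein of dividing cells (ENSMUSG00000054717, chr8:57964941-57969033), went the other way. It measured 20.9, 22.3 and 22.2 CPM in Cap-L and 25.8, 30.6 and 27.3 CPM in Cap-L+2D, and 20.1, 20.8 and 18.6 CPM in Cap-B and 28.2, 28.9 and 28.4 CPM in Cap-B+2D. All cultured libraries lay above all fresh ones. It rose by 0.50 ± 0.06 on the log2 scale in the buccal part (adjusted p = 2.36e-09), at the edge of the fold limit, and measured 0.36 ± 0.06 in the lingual part (adjusted p = 2.09e-05), under that limit; the buccal call was lost with all 24 libraries in 1 fit, without Cap-B replicate 3 (0.46) and without Cap-B+2D replicate 2 (0.50). Anp32e measured -0.40 ± 0.04 and -0.18 ± 0.03. Ctcf, the insulator protein that cells use throughout the cycle (ENSMUSG00000005698, chr8:106363200-106409554), changed little, at 144, 136 and 141 CPM in Cap-L and 124, 133 and 127 CPM in Cap-L+2D, with a log2 fold change of -0.13 ± 0.04 (adjusted p = 0.0107), and of -0.08 ± 0.04 in the buccal part.

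Of the 3 genes of the nuclear envelope and transport, Tmpo, a lamina protein gene, and Rangap1, which activates the GTPase of Ran (ENSMUSG00000022391, chr15:81588449-81629731), fell in the lingual part, by 0.90 ± 0.04 and 0.62 ± 0.04. Neither was called in the buccal part, where they measured -0.39 ± 0.04 and -0.16 ± 0.04. Lbr, the lamin B receptor, was called in neither part, at -0.30 ± 0.05 and -0.14 ± 0.04.

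**Figure D4:**
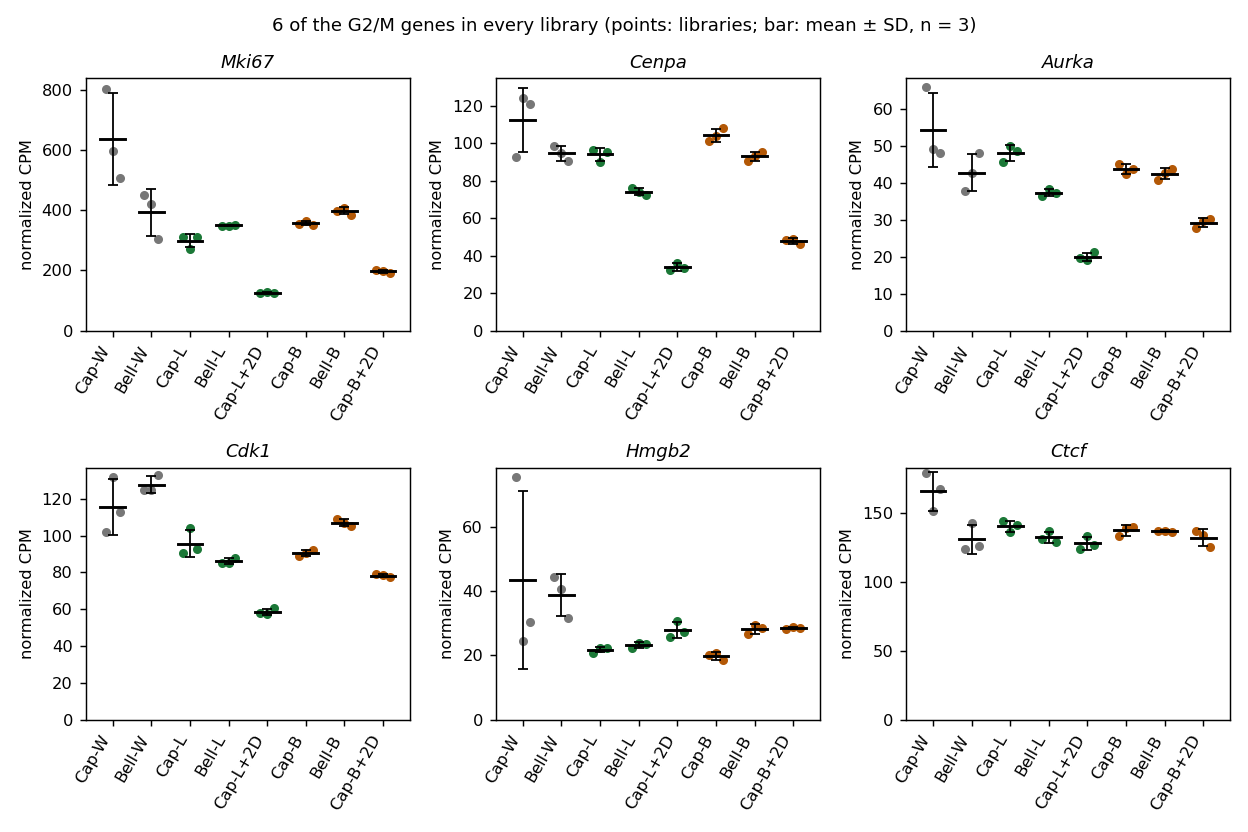
Normalised CPM (vertical axis) of 6 of the genes in every library by group (horizontal axis), with points for libraries and a bar for the mean ± SD (n = 3). Mki67, Cenpa and Aurka are lowest in Cap-L+2D and next lowest in Cap-B+2D, Cdk1 falls mainly on the lingual side, Hmgb2 is higher in both cultured groups than in the matching cap part, and Ctcf stays between 124 and 179 CPM.

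Whether the side difference differed between the cultured and the cap stage parts was tested directly by an interaction of side with culture. Culture and age cannot be told apart in it. For comparison, the median buccal over lingual log2 fold change was 0.25 at the bell stage, without culture, and 0.37 after culture. At an adjusted p under 0.05 the buccal over lingual ratio was larger after culture than before it for 42 of the 52 genes and smaller for 1, where 16.0% of 22098 genes tested passed the first way and 19.5% the other. Called or not, 50 of the 52 values were above 0 and 2 below it. With all 24 libraries in 1 fit 29 genes passed, all of them positive. The median interaction was 0.33 on the log2 scale against -0.01 for all genes. The largest were Gtse1, which binds microtubules and p53, at 0.65 ± 0.09 (adjusted p = 1.29e-06), Aurka at 0.65 ± 0.08 (adjusted p = 8.96e-08), Ube2c at 0.57 ± 0.10 (adjusted p = 4.2e-05), Birc5 at 0.56 ± 0.07 (adjusted p = 1.47e-07) and Tmpo at 0.50 ± 0.06 (adjusted p = 5.12e-08). The exception was Tubb4b at -0.18 ± 0.06 (adjusted p = 0.0316). Of the 18 genes called lower in the lingual part and not in the buccal part, 17 had a called interaction, and Ect2, at 0.15 ± 0.08 (adjusted p = 0.162), did not. The interactions of Gas2l3, at -0.07 ± 0.08, and Ctcf, at 0.04 ± 0.06, did not pass the test either.

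Side by side after culture, 13 of the 52 genes were higher in Cap-B+2D than in Cap-L+2D and none was lower, where 12.5% of 21195 genes were called higher and also 12.5% lower. DESeq2 called 12 higher and none lower, and 1 gene was lower at an unadjusted p under 0.05. The median was 0.37 against 0.00 for all genes, and 51 of the 52 values were above 0. The 13 were Cenpf, Dlgap5, Nek2, Mki67, Cbx5, Hjurp, Cdca2, Cenpe, Cdca3, Gtse1, Bub1, Aurka and Ube2c. Cenpf differed most, by 0.72 ± 0.05 (adjusted p = 2.29e-12), followed by Dlgap5, a spindle assembly factor, at 0.65 ± 0.06 and Nek2 at 0.65 ± 0.07. Mki67 followed at 0.64 ± 0.04 (adjusted p = 1.21e-13) and Cbx5 at 0.62 ± 0.04. Tubb4b had the only negative value, -0.29 ± 0.04 (adjusted p = 3.37e-07), with 162, 161 and 161 CPM in Cap-L+2D above 128, 134 and 135 CPM in Cap-B+2D.

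Marker genes of other cells moved in the same libraries. The summed level of 13 skeletal muscle markers was 27.2 to 28.2 CPM in Cap-L and 399 to 426 CPM in Cap-L+2D, and 292 to 309 CPM in Cap-B and 4880.3 to 5181 CPM in Cap-B+2D, with all 13 called higher after culture on both sides and higher in Cap-B+2D than in Cap-L+2D. Erythroid markers (8 genes) went from 2449.6 to 3035 CPM in Cap-L and 2824 to 2950.4 CPM in Cap-B to between 28.7 and 34.7 CPM in the cultured libraries, with 8 of 8 called lower on both sides. Macrophage markers (9 genes) went from 91.9 to 96.0 CPM in Cap-L to 316 to 329.8 CPM, and from 100.5 to 106 CPM in Cap-B to 207 to 222 CPM.

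Osteoblast markers (6 genes) summed to 2094 to 2117 CPM in Cap-L+2D and 461 to 485 CPM in Cap-B+2D, against 523 to 545 and 208 to 219 CPM before culture. Epithelial markers (10 genes) went from 494 to 543 CPM in Cap-L to 401 to 435 CPM in Cap-L+2D, and from 368 to 383 CPM in Cap-B to 90.1 to 90.6 CPM in Cap-B+2D. Endothelial markers (7 genes) ended at 411 to 417 CPM on the lingual and 174 to 181 CPM on the buccal side, Schwann cell markers (6 genes) at 19.3 to 20.8 and 99.7 to 103 CPM, neuronal markers (6 genes) at 73.8 to 76.0 and 87.5 to 92.6 CPM, and cartilage markers (7 genes) at 258 to 283 and 167 to 183 CPM. Immediate early genes (8 genes), which handling can switch on, were 8495 to 8637 CPM in Cap-L+2D and 5432 to 5760.3 CPM in Cap-B+2D, against 3615 to 3774 CPM in the cap parts. The 9 dental mesenchyme markers themselves were 2959 to 3051 CPM in the cap parts, 2412 to 2494 CPM in Cap-L+2D and 2115 to 2131 CPM in Cap-B+2D. No marker of these lists was at 0 counts in all libraries of a cultured group, and their part in the change of the G2/M genes was not tested.

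Other genes of the cycle moved as follows in the same culture comparisons, which use the same cap and cultured libraries. Of all genes tested, 15.9% were called lower in the lingual and 16.6% in the buccal part, and 12.5% higher in Cap-B+2D than in Cap-L+2D. Of 50 other mitotic genes, 44 fell in the lingual part (median -0.88, the largest Kif14 at -1.44 and Sgo2a at -1.40), 23 fell in the buccal part (median -0.47, the largest Aspm at -1.19 and Knl1 at -1.07), and 18 were higher in Cap-B+2D than in Cap-L+2D (the largest Ccnf at 0.85 and Fam83d at 0.82). Of 43 S phase genes, 23 fell on the lingual side, and 6 on the buccal side, a share no higher than that of all genes. Their medians were -0.53 and -0.38, against -0.03 and -0.02 for all genes. The largest falls were of Nasp, a histone chaperone, at -1.14 and -0.99. Among 14 regulators of mitotic genes, 3 were called lower on each side and 1 higher in Cap-B+2D, shares near those of all genes. In the lingual part they were the activators Foxm1 at -0.59 ± 0.05 and Mybl2, which encodes B-MYB, at -0.71 ± 0.07, and the DREAM pocket protein Rbl1 at -0.56 ± 0.05. In the buccal part Rbl1, E2f5 and Nfya fell, by 0.63, 0.54 and 0.53. Mybl2 was the 1 regulator higher in Cap-B+2D than in Cap-L+2D, at 0.67 ± 0.06 (adjusted p = 1.1e-09).

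Of 9 inhibitors of the cell cycle tested (of 10 listed), 6 rose in each part, where 19.6% of all genes tested rose in the lingual and 17.9% in the buccal part. Cdkn1a, which encodes p21, rose by 2.92 ± 0.06 (adjusted p = 5.72e-23) in the lingual part, or 7.57-fold, and by 3.97 ± 0.05 (adjusted p = 1.82e-35) in the buccal part, or 15.7-fold. Cdkn2b, which encodes p15, rose by 4.24 and 3.27. Between the cultured parts the list was split, with Gas1 at 1.03 and Cdkn1a at 0.72 higher in Cap-B+2D and Btg2 at -0.94, Cdkn2c at -0.68 and Cdkn2b at -0.50 lower. The part of these inhibitors in the change of the G2/M genes was not tested.

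A further comparison set the cultured parts, which had reached the age of the bell stage, against bell stage parts taken from the embryo. It uses the same cultured libraries as above. In the lingual part 45 of the 52 genes were lower in Cap-L+2D than in Bell-L and none was higher, against 16.8% and 14.4% of all genes, and in the buccal part 34 were lower and none higher, against 16.3% and 15.5%. DESeq2 called 43 and 33 lower and 0 higher, and at an unadjusted p under 0.05 edgeR gave 1 and 0 higher. The medians were -0.74 and -0.67, close to each other. All 34 that were lower on the buccal side were lower on the lingual side too, and 45 genes of the lingual and 27 of the buccal side were lower than at both stages in the embryo. Mki67 measured 349, 349 and 352 CPM in Bell-L and 399, 409 and 386 CPM in Bell-B. Each bell part lay above its own cap part without overlap, and far above its cultured one. Its log2 fold change after culture was -1.48 ± 0.05 (adjusted p = 1.79e-18) and -1.03 ± 0.03 (adjusted p = 1.31e-23).

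Cenpf was the lowest on both sides, at -1.62 ± 0.05 (adjusted p = 1.12e-18) in the lingual part and -1.11 ± 0.04 (adjusted p = 1.4e-22) in the buccal part. After it in the lingual part came Mki67, Cenpe at -1.31, Kif20b at -1.15 and Cenpa at -1.13. In the buccal part came Gas2l3 at -1.09, Mki67, Cenpa at -0.97 and Cenpe at -0.94. Cdk1 fell by 0.55 ± 0.05 against Bell-L (adjusted p = 7.28e-10) and measured -0.46 ± 0.03 against Bell-B (adjusted p = 2.21e-13). Hmgb2 was at 0.00 ± 0.05 against Bell-B, in which it measured 26.7, 29.6 and 28.5 CPM, and at 0.27 ± 0.06 against Bell-L, in which it measured 22.2, 23.9 and 23.5 CPM. The genes not called lower in the lingual part were Hmgb2, Cks1b, Anp32e, Tubb4b, Lbr, Ctcf and Rangap1.

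At the bell stage the 52 genes leaned to the buccal side by small steps. No gene was called, against 6.00% of 21181 genes called higher and 6.88% lower, and DESeq2 also called 0. All 52 log2 fold changes of Bell-B over Bell-L were nonetheless above 0, from 0.04 for Ctcf to 0.38 for Nek2, with a median of 0.25 against 0.00 for all genes. With no fold limit 49 were higher in Bell-B by edgeR's adjusted p and none lower, against 17.7% and 19.3% of all genes (50 at an unadjusted p under 0.05). Top2a measured 269, 275 and 275 CPM in Bell-L and 336, 341 and 334 CPM in Bell-B, without overlap, a difference of 0.30 ± 0.03 (adjusted p = 4.26e-11). Cdk1 measured 85.2, 85.0 and 88.0 CPM against 109, 107 and 105 CPM, or 0.31 ± 0.03 (adjusted p = 4.16e-10). Aurkb measured 48.1, 49.5 and 47.8 CPM against 61.0, 61.7 and 61.0 CPM, or 0.34 ± 0.04 (adjusted p = 1.55e-09). The 3 genes short of the adjusted p were Ctcf, Lbr at 0.05 ± 0.04 and Tubb4b at 0.08 ± 0.03. In the same libraries the muscle markers summed to 148 to 159.6 CPM in Bell-L and 1195 to 1226 CPM in Bell-B with 13 of 13 called higher, 6 of 9 macrophage markers were lower in Bell-B (191 to 193 against 351 to 354 CPM), and their part in this lean was not tested.

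At the cap stage the fresh parts were nearly level. No gene was called, against 10.4% of 20653 genes called higher and 7.10% lower in Cap-B, and DESeq2 called 0 too. At an unadjusted p under 0.05, edgeR gave 15 higher and 8 lower, and by the adjusted p with no fold limit 11 were higher and 5 lower, against 21.7% and 20.7% of all genes. The median was 0.05 against -0.01. Rangap1 was the lowest, at 143, 151 and 144 CPM in Cap-L and 104, 106 and 110.4 CPM in Cap-B, a log2 fold change of -0.43 ± 0.04 (adjusted p = 2.95e-07). Psrc1 was also on the lingual side, at -0.30 ± 0.06 (adjusted p = 0.000246). On the buccal side stood Cenpf, at 0.37 ± 0.05 (adjusted p = 1.34e-05), and Mki67, at 0.28 ± 0.05 (adjusted p = 0.000331), each without overlap between the groups.

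**Figure D5:**
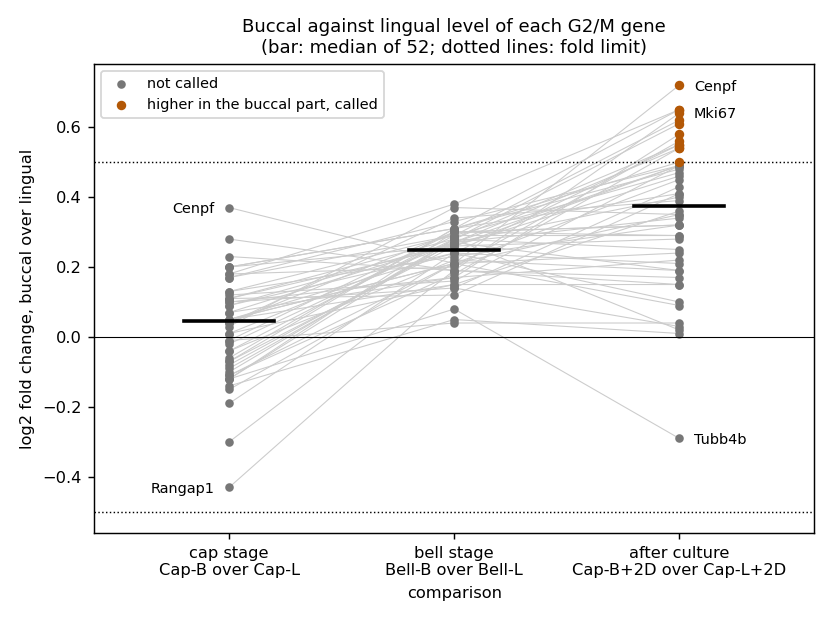
Log2 fold change of buccal over lingual level for each of the 52 genes (points joined by grey lines) at the cap stage, at the bell stage and after culture; black bars are medians and dotted lines the fold limit of 0.5. The medians are 0.05, 0.25 and 0.37, all 52 points lie above 0 at the bell stage, and the 13 brown points after culture are the genes called.

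The interaction of side with stage tested whether the side difference changed between the stages. At an adjusted p under 0.05 it was positive for 28 of the 52 genes and negative for 1, against 14.5% and 18.0% of 21931 genes, with a median of 0.18 against -0.02. Called or not, 49 values were above 0 and 3 below it. Rangap1 changed most, by 0.57 ± 0.06 (adjusted p = 2.41e-09), from higher in Cap-L to slightly higher in Bell-B, where it measured 122, 119 and 126 CPM against 112, 108 and 112 CPM in Bell-L. Psrc1 followed at 0.49 ± 0.08 (adjusted p = 2.35e-05), Cks2 at 0.43 ± 0.14 (adjusted p = 0.0155), Cdca8 at 0.42 ± 0.06 (adjusted p = 5.44e-06) and Hmgb2 at 0.39 ± 0.08 (adjusted p = 0.000523). Cenpf was the exception, at -0.16 ± 0.06 (adjusted p = 0.0484), since it leaned to the buccal side more at the cap stage. This count depended on the fit: with all 24 libraries in 1 fit, 7 genes passed, all positive.

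From cap to bell stage the parts of the embryo changed little. In the lingual part 1 gene, Psrc1, was lower and none higher, against 5.78% and 14.2% of all genes, and the median was -0.15 against 0.00. Psrc1 measured 52.6, 59.8 and 52.3 CPM in Cap-L and 36.2, 33.0 and 35.7 CPM in Bell-L, a fall of 0.64 ± 0.06 (adjusted p = 1.6e-09). Without the fold limit 27 were lower and 3 higher by edgeR, against 23.6% and 26.5%, and at an unadjusted p under 0.05 there were 29 and 4. In the buccal part 1 gene, Hmgb2, was higher and none lower, against 12.0% and 6.73%, with a median of 0.06 against 0.00, and without the fold limit 21 were higher and 4 lower by edgeR, against 24.5% and 23.5% (23 and 5 at an unadjusted p under 0.05). DESeq2 called the same numbers, 1 lower and 0 higher in the lingual part and 1 higher and 0 lower in the buccal part. Hmgb2 went from 20.1, 20.8 and 18.6 CPM in Cap-B to 26.7, 29.6 and 28.5 CPM in Bell-B, a rise of 0.50 ± 0.06 (adjusted p = 7.37e-09), and it was not called without Cap-B replicate 3, Bell-B replicate 2 or Bell-B replicate 3. Mki67 measured 0.24 ± 0.05 and 0.15 ± 0.03 in the lingual and the buccal part, and Cdk1 -0.15 ± 0.05 and 0.23 ± 0.03.

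The undivided mesenchyme gave a different picture of the same stages. Of the 52 genes 12 were lower in Bell-W than in Cap-W and none was higher, against 4.21% and 10.3% of 20940 genes, with a median of -0.38 against -0.03, and at an unadjusted p under 0.05 edgeR gave 33 lower and 0 higher. DESeq2 called 15 lower and 0 higher. The 12 were Cenpe at -0.83 ± 0.23 (adjusted p = 0.0472), Psrc1 at -0.74 ± 0.10 (adjusted p = 0.00248), Cbx5 at -0.70 ± 0.15, Bub1 at -0.66 ± 0.13, Tmpo at -0.64 ± 0.16, Kif2c, Cdca2, Ckap2l, Ckap5, Hmmr, Kif11 and Ncapd2. Psrc1 measured 77.3, 74.3 and 73.7 CPM in Cap-W and 42.4, 48.5 and 45.7 CPM in Bell-W, without overlap. Mki67 measured 805, 596 and 507 CPM in Cap-W and 452, 421 and 306 CPM in Bell-W; these groups did not overlap either, but the spread was wide, and at -0.70 ± 0.21 (adjusted p = 0.0598) it was not called. Cdk1 measured 102, 132 and 113 CPM in Cap-W and 125, 125 and 133 CPM in Bell-W, with overlap, and differed by 0.12 ± 0.13.

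The count rested on single libraries. It was 8, 5 and 6 without Cap-W replicate 1, 2 and 3, and 7, 4 and 7 without Bell-W replicate 1, 2 and 3, and without Cap-W replicate 1 the median was -0.30. With Cap-W replicate 1 and Bell-W replicate 3 both left out, which leaves 2 libraries a group, 7 genes were lower and 1 higher, with a median of -0.29; those lower were Psrc1, Cbx5, Cdc25c, Cdca2, Ncapd2, Gtse1 and Kif2c, from -0.71 ± 0.09 to -0.50 ± 0.08, and the gene higher was Hmgb2 at 0.62 ± 0.12, which measured 75.3, 24.6 and 30.4 CPM in Cap-W and 44.3, 40.5 and 31.6 CPM in Bell-W. Between these stages the macrophage markers in the undivided libraries went from 45.9 to 53.1 CPM in Cap-W to 229 to 243 CPM in Bell-W. The endothelial markers went from 210.4 to 222 CPM to 409 to 512 CPM. Of these lists 9 of 9 and 7 of 7 were called higher, against 10.3% of all genes tested. The erythroid markers went from 1833 to 2625 CPM to 5390.2 to 6602 CPM. The part of these markers in the result was not tested.

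The undivided and divided libraries of the cap stage also stood apart from each other. For 38 of the 52 genes every Cap-W library lay above all 6 libraries of Cap-L and Cap-B, against 11.7% of all genes, with a median log2 ratio of the means of 0.48 against -0.03, and a range from 0.12 to 1.06. Without Cap-W replicate 1 the count was 42, against 17.5% of all genes, and the median 0.40. At the bell stage 11 of the 52 lay so, against 9.16% of all genes, with a median of 0.15, and without Bell-W replicate 3 the count was 21, against 18.1%, and the median 0.18. Top2a showed the gap at the cap stage, at 599, 479.7 and 476 CPM in Cap-W against 275 to 284 CPM in the parts. Cutting into parts and the other ways in which the undivided samples were made cannot be told apart here. The immediate early genes summed to 1168 to 1495 CPM in Cap-W and 3615 to 3774 CPM in the cap parts, and osteoblast markers to 71.6 to 146 CPM in Cap-W, and their part in the gap was not tested.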

How the data were processed

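Bulk RNA sequencing was done on 24 libraries, grouped by their labels into 8 groups of 3. The authors deposited 1 table of raw counts per gene: read pairs counted with featureCounts (2.0.0 in the file header) against the Ensembl 107 annotation of GRCm39, without strand, leaving out reads with several alignments or several genes. The submitters' processing notes name FastQC 0.12.1, Trimmomatic 0.39, Bowtie 1.2.3, Subread 2.0.3 and DESeq2 1.40.2. Reads shared with copies or overlapping genes are therefore lost or split.

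Each comparison was fitted on the counts with edgeR 4.0.16 (R 4.3.3, limma 3.58.1; TMM factors, default filter on low counts, quasi-likelihood test), with p-values adjusted by Benjamini-Hochberg over all genes tested. Side and undivided comparisons used the 6 libraries of their groups, stage and culture comparisons the 3 groups of 1 side, and interactions the 4 groups concerned. Interactions were called by the adjusted p alone. A standard error was taken from the fold change and the test statistic. DESeq2 1.42.0, other scalings, filters and fold limits, all libraries in 1 fit, a replicate block and leaving out each library were alternatives. The code was tested on simulated data. Total counts had a median of 27677164, and the limit that a count of 0 allows was 3 counts a library, for counting error only.

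The rule that gave the 52 genes uses no measured value. The choice to follow this list, the other gene lists, the roles, 11 marker lists and the tests were made with earlier results of these data known. Named with values were a preset list of genes, up to 5 members a direction with the largest fold change among those called, and every member against the majority where these were 5 or fewer; for other lists, up to 2 genes a direction. Promoter windows came from RefSeq (GRCm38.p6). Figures and counts used Python 3.11.15 (numpy 2.4.6, pandas 2.3.3, matplotlib 3.10.9). Replicate numbers were given in the labels, but libraries with the same number did not deviate together.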

Additional observations from a re-analysis of the deposited data

Results flagged for a closer look

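The side difference of the 52 genes differed before and after culture and between the stages, each by a test of the difference itself (an interaction in edgeR). The interaction of side with culture was called for 43 genes, led by Gtse1 and Aurka at 0.65 each, Ube2c at 0.57, Birc5 at 0.56 and Tmpo at 0.50 on the log2 scale towards the buccal side, with Tubb4b at -0.18 towards the lingual side. The interaction of side with stage was called for 29 genes, led by Rangap1 at 0.57, Psrc1 at 0.49, Cks2 at 0.43, Cdca8 at 0.42 and Hmgb2 at 0.39, with Cenpf at -0.16. Both share the cap stage libraries of the parts, and in the interaction with culture, culture and age cannot be told apart. No group held enough libraries to look for a single library far from the others by a gap test, which needs 4.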

How the results depend on the processing

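Of 8736 values of single genes under the alternatives, 8434 stayed on the same side of the threshold, 226 lost a call and 76 gained one. Among these values, none that was called in either fit reversed its direction. Direction was not compared where neither fit called the gene. The 8736 values leave out the changed fold limit and the fit without both undivided libraries that stand apart. In that fit Hmgb2 was called higher in Bell-W, at 0.62, although its value in the main fit was negative. The fold limit set most counts: with no fold limit the calls were 16 for side at the cap stage, 49 at the bell stage, 46 after culture, 30 for stage in the lingual part, 25 in the buccal part and 52 for culture in the buccal part, and with a limit of 0.5 added to the interactions, 1 with stage and 6 with culture. With all 24 libraries in 1 fit, stage in the buccal part gave 0 calls and the interaction of side with stage 7, and that with culture 29 in place of 43. Leaving out both undivided libraries that stand apart, chosen after seeing the data, gave 8 in place of 12.

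Leaving out each library in turn gave 4 to 8 calls for the undivided mesenchyme, 0 to 1 for stage in the buccal part, 11 to 18 for side after culture, 45 to 46 and 27 to 33 for culture in the lingual and buccal parts, 43 to 45 and 32 to 34 against the bell stage, 22 to 35 for the interaction with stage and 39 to 46 for that with culture. Leaving 2 libraries in a group assumes that they vary like the others. Correlations of the deviations of same-numbered libraries ran from -0.329 to 0.339, and in 0 of 10 comparisons were all pairs over 0.1, so the numbers were not taken to pair the samples. With the replicate block the calls were 46 and 29 for culture in the lingual and buccal parts, 12 for side after culture, 14 for the undivided mesenchyme, 25 for the interaction with stage and 42 for that with culture.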
